A study of Mus musculus with 10 samples.

Results

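The expression of 10 surface and subset markers of adipose stem and precursor cells (ASPCs) was followed in cultured mouse ASPCs. The members were given by gene symbol, and each is a single row of the count table, making 10 of 25229 rows. They were Dpep1, Dpp4, Pi16, Cd55, Sema3c, Anxa3, Ly6a, Cd34, Cd24a and Thy1. All 10 passed the filter on low counts, which left 14251 genes for testing.

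The cells came from WT mice in both groups. They were sorted as CD45-CD31-Pdgfra+ cells from the stromovascular fraction of perigonadal white adipose tissue (gWAT), grown to confluence and treated before any passage. One group was treated with 100 nM FICZ, a tryptophan photoproduct that binds the aryl hydrocarbon receptor (AHR), and the other with DMSO, the vehicle. Lysates for bulk RNA sequencing were taken 6 hr later, which gave 5 libraries per group, numbered 1 to 5 in each. The sources used here give neither the age of the mice nor what the number marks, and they do not say that the 5 libraries of a group came from separate mice. If they did not, the p-values measure only the spread between these samples. The comparison asked whether AHR activation altered the markers, and what level they had in the cultured cells without it.

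ASPCs are the Pdgfra+ mesenchymal cells that give rise to adipocytes, and they fall into states along a path of commitment. Cells with high Dpp4, Pi16 and Cd55 lie in the reticular interstitium around the fat lobules and act as early, multipotent progenitors, while preadipocytes with more Pparg, Lpl and collagen IV lie closer to differentiation. Ly6a (Sca-1), Cd34, Cd24a and Thy1 (CD90) are the surface antigens long used to sort such cells. AHR is a ligand-activated transcription factor that binds DNA with its partner ARNT at the response element AHRE, whose core is GCGTG.

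The libraries held between 38328611 and 50210111 counts in DMSO and between 40272024 and 47670865 in FICZ, so that 3 counts correspond to between 0.0603 and 0.0787 CPM, a read count scaled for depth and TMM factor. Cyp1a1, the classical AHR target, lay between 11.6 and 42.9 CPM in DMSO and between 144 and 355 CPM in FICZ. Pdgfra, the receptor used in the sort, lay between 1181 and 1472 CPM. Ptprc, which encodes CD45, reached at most 1.70 CPM and Pecam1, which encodes CD31, at most 1.62 CPM. The 8 immune markers together summed to between 20.1 and 37.8 CPM. Of the 6 markers of mature adipocytes, Lep had 0 counts in every library, and the list summed to between 4.65 and 22.9 CPM. Transcripts of hepatocytes were present in every library, with Alb between 682 and 1085 CPM in FICZ and between 713 and 4782 CPM in DMSO, the highest in DMSO replicate 5.

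Because a ligand of a DNA-binding receptor was added, the sequence around the transcription starts was searched for the AHRE core. RefSeq promoter windows of GRCm38.p6, from 250 bases before the start to 50 after it, are reported for 5 of the 10 members. No such window was available for 4 members. GCGTG was searched on both strands, and 32.4% of all 32851 windows held it. It occurred once each in the windows of Dpep1 and Cd55, and the windows of Dpp4, Pi16 and Cd34 held none. The Pi16 window began at chr17:29318632, inside the gene coordinates given below, so sequence before the outermost Pi16 start was not searched. The longer form TNGCGTG, which contains GCGTG, was in 5.07% of all windows and, among the windows shown here, in that of Dpep1 but not in that of Cyp1a1. The 30 bases around each match are shown with those of Cyp1a1, a known AHR target. The windows reach only 250 bases before the start. The paper labels the AHRE region where it measured AHR binding with a distance greater than this reach. The Cyp1a1 match is therefore shown only as a stretch of letters, and whether AHR binds it was not tested. Each is written 5′ to 3′ on the strand of its gene, with the core in capitals, or CACGC where the core was on the opposite strand.
Dpep1: tactgagggcttGCGTGcctttcggagacg
Cd55: aacgccctcttgCACGCaggctgccccacc
Cyp1a1: tcagataaggagGCGTGgccaacagacaca

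The Dpep1 stretch is chr8:123186220-123186249 on the plus strand, and its core began 3 bases before the start of transcription. The Cd55 stretch is chr1:130462773-130462802 on the minus strand, with the core 46 bases before the start. The Cyp1a1 stretch is chr9:57697547-57697576 on the plus strand, 54 bases before the start. These matches describe the letters only, and no measurement of AHR binding was used.

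At baseline the markers spanned a wide range. Levels of different genes were compared as CPM per kilobase of merged exon in the DMSO libraries, where the median of all genes tested was 5.37. Ly6a, a GPI-anchored Ly6 family protein, and Anxa3, a calcium-dependent phospholipid-binding annexin, came first with 128 ± 43.0 and 106 ± 23.9 (SD, n = 5), and Ly6a was the higher of the pair in only 2 of the 5 DMSO libraries. Thy1, a GPI-anchored immunoglobulin superfamily protein, followed with 38.7 ± 3.88. Dpep1, a GPI-anchored membrane dipeptidase, had 29.8 ± 5.03, and Cd34, a sialomucin, had 25.0 ± 1.98. The ranges of Thy1 and Dpep1 overlapped, as did those of Dpep1 and Cd34, although Dpep1 was above Cd34 in all 10 libraries.

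The markers of the interstitial state other than Anxa3 lay lower. Dpp4, a cell-surface serine dipeptidyl peptidase, had 6.69 ± 1.84 CPM per kilobase and Sema3c, a secreted class 3 semaphorin, had 6.22 ± 2.15, with ranges that overlapped each other. Cd55, a GPI-anchored inhibitor of complement, had 4.29 ± 0.593, and its range overlapped with that of Sema3c. Pi16, a protein of the CAP family, had 1.11 ± 0.227, which placed it above 22.5% of the 13999 tested genes with an exon length. Cd24a, a small GPI-anchored glycoprotein, was the lowest with 0.196 ± 0.0814, above 7.17% of genes, although its 14 to 42 counts per library stood above the floor of 3. Merged exons count every annotated transcript, so a long rare form lowers such a level.

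**Figure D1:**
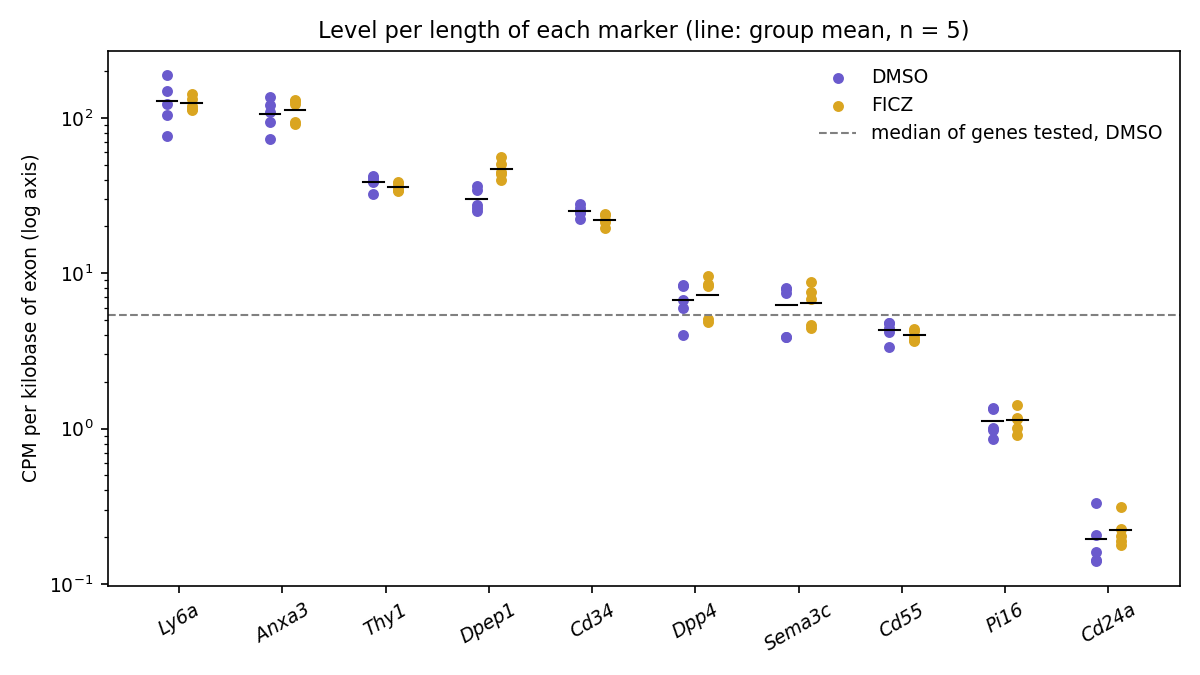
Level of each marker as CPM per kilobase of exon on a log axis, with 1 point per library (5 DMSO in purple, 5 FICZ in yellow), black lines at group means and a dashed line at 5.37, the median of genes tested in DMSO. Ly6a and Anxa3 sit highest, Cd24a lowest, and Dpep1 is the marker whose FICZ points lie clear of its DMSO points.

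With FICZ, Dpep1 was higher in every library than in any DMSO library, and the other 9 markers did not pass the threshold in any fit. Across the 10 members the median log2 fold change (FICZ against DMSO) was 0.04, against 0.01 over all genes tested. Of the members, 7 had a positive mean difference over the same-numbered pairs and 3 a negative one. The 7 include Ly6a, whose mean pair difference was 0.015 (SD 0.55) and whose edgeR log2 fold change without a replicate block was -0.05. In edgeR's quasi-likelihood test with Benjamini-Hochberg adjustment over all genes, 0 of 10 members passed an adjusted p of 0.05, beside 0.0211% of all genes tested (3 of 14251). At an unadjusted p of 0.05, 1 member passed, beside 4.82% of all genes. DESeq2 called 1 of 10 members, beside 0.0845% of all genes.

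Same-numbered libraries deviated together from their group means in every pair, so a second fit took the replicate number as a block. With the block 1 of 10 members passed, beside 0.0561% of all genes, and DESeq2 with the block also called 1, beside 0.14% of all genes. At an unadjusted p of 0.05 the block fit passed 2 members, Dpep1 and Cd34, beside 4.65% of all genes.

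**Figure D2:**
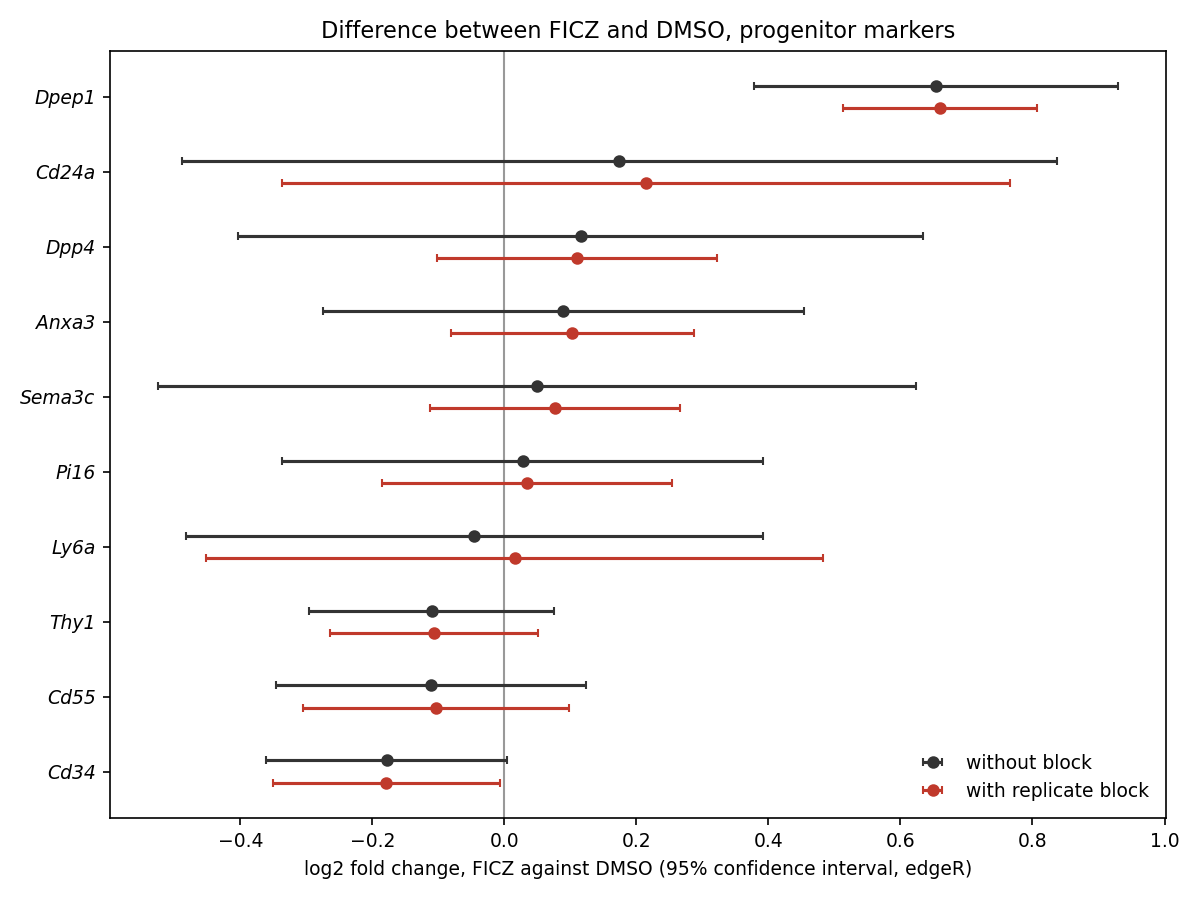
Log2 fold change of FICZ against DMSO for each marker (horizontal axis, log2 units) with 95% confidence intervals from edgeR, without the block in black and with it in red, from 5 libraries per group. Dpep1 is at 0.65 and 0.66 with both intervals above 0, and of the other intervals only that of Cd34 with the block does not include 0.

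Dpep1 (ENSMUSG00000019278.5, chr8:123186242-123201812 of GRCm38, plus strand) encodes dipeptidase 1, which cleaves cysteinylglycine released from glutathione and converts leukotriene D to leukotriene E. In DMSO replicates 1 to 5 its level was 62.4, 65.0, 68.3, 89.8 and 85.3 CPM, and in FICZ it was 99.0, 109, 112, 126 and 138 CPM. Every FICZ library lay above every DMSO library, and no other member had groups that did not overlap. Across all genes tested, 0.351% had groups apart with FICZ higher and 0.119% with FICZ lower. The Dpep1 fold was 1.57 (95% confidence interval 1.30 to 1.91), or 0.65 ± 0.13 (standard error) on the log2 scale.

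Whether Dpep1 was called depended on the test. In edgeR's test without the block the adjusted p was 0.454, from an unadjusted p of 0.000255. With the block the log2 value was 0.66 ± 0.06 (standard error, 95% confidence interval 0.51 to 0.81) and the adjusted p from edgeR was 0.0321. DESeq2 gave adjusted p = 0.00756, and 1.57e-10 with the block. The exact two-sided permutation test over all arrangements of the libraries gave p = 0.00794, the smallest it can give, with no adjustment for the 10 members tested so. With the block, leaving out both libraries of 1 number gave log2 fold changes between 0.64 and 0.70, and edgeR's adjusted p was 0.278 without number 1, 0.361 without number 2, 0.183 without number 3, 0.192 without number 4 and 0.0159 without number 5.

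The Dpep1 difference had a similar size in each pair, at 0.67, 0.74, 0.71, 0.48 and 0.70 log2 units in numbers 1 to 5. All 5 pairs went the same way, which held for 7.12% of all genes tested in either direction. Numbers 4 and 5 had the highest Dpep1 levels in both groups. Per kilobase, Thy1 exceeded Dpep1 in 4 of 5 DMSO libraries and in 0 of 5 FICZ libraries, where the means were 35.9 for Thy1 and 46.9 for Dpep1. Dpep1 was included with earlier results of these libraries known, so its direction here is not independent evidence. In bulk samples such as these, fewer cells of a type and less RNA per cell cannot be told apart, so neither can more cells with Dpep1 and more Dpep1 per cell.

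**Figure D3:**
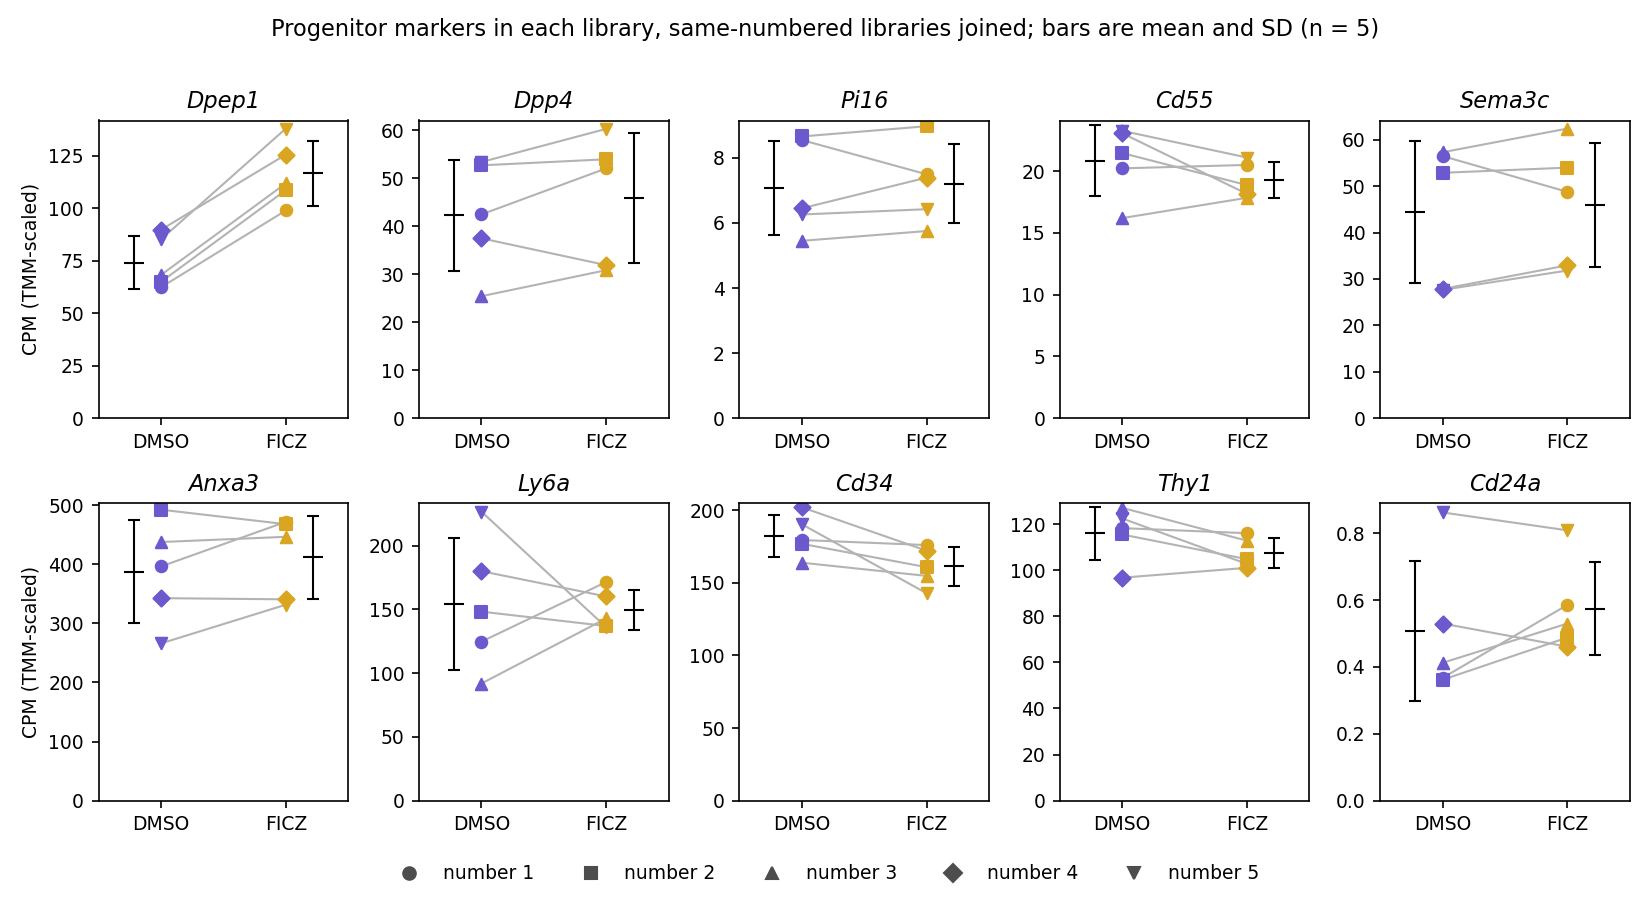
CPM of each marker in each library (vertical axes start at 0), with same-numbered DMSO (purple) and FICZ (yellow) libraries joined and black bars for the mean and SD of 5. All Dpep1 lines rise from 62.4 to 89.8 CPM up to 99.0 to 138 CPM, all Cd34 lines slope down, and the other markers have lines in both directions.

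The other enzymes around Dpep1 did not pass the threshold. Its paralog Dpep2 had at most 2 counts in any library and Dpep3 had 0 in all of them. Of 11 genes of this family and of glutathione and leukotriene handling, 8 were tested, 0 passed in either direction and their median log2 fold change was 0.16. At an unadjusted p of 0.05 in edgeR's block fit, 3 of the 8 passed, beside 4.65% of all genes, and 0 passed after adjustment. Gclm, the regulatory subunit of the ligase that starts glutathione synthesis, averaged 279 ± 80.8 CPM in the DMSO libraries and 342 ± 98.8 with FICZ (SD, n = 5). Its log2 difference was 0.30 (0.08 as standard error with the block, adjusted p = 0.882 from edgeR). Gclc, the catalytic subunit, had a log2 fold change of 0.20 and Lap3, a leucine aminopeptidase, one of 0.04.

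The 5 interstitial markers had log2 fold changes between -0.11 and 0.12, with a median of 0.05, and 0 of 5 passed. Dpp4 (chr2:62330073-62412231, minus strand) had 42.4, 52.7, 25.4, 37.5 and 53.3 CPM in DMSO replicates 1 to 5 and 52.0, 53.9, 30.8, 31.9 and 60.3 CPM in FICZ. The groups overlapped almost fully, while number 3 was lowest and number 5 highest in both. The log2 fold change was 0.12 with a 95% confidence interval from -0.40 to 0.63, and from -0.10 to 0.32 with the block.

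Sema3c (chr5:17574281-17730268, plus strand) showed the clearest division by replicate number. Its level in DMSO was 56.5, 52.9 and 57.3 CPM in numbers 1 to 3 and 27.9 and 27.6 CPM in numbers 4 and 5. In FICZ it was 48.8, 54.0 and 62.4 CPM in numbers 1 to 3 and 32.9 and 31.8 CPM in numbers 4 and 5. Numbers 4 and 5 were thus below numbers 1 to 3 in both groups, and the groups overlapped. The log2 fold change was 0.05 (95% confidence interval -0.52 to 0.62), which narrowed with the block to 0.08 (-0.11 to 0.27).

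Anxa3 (chr5:96793339-96845966, plus strand) had 396, 492, 438, 343 and 266 CPM in DMSO and 472, 468, 446, 341 and 331 CPM in FICZ. Numbers 4 and 5 were again the lowest in both groups. The log2 fold change was 0.09 (95% confidence interval -0.28 to 0.45). Leaving out DMSO replicate 5 turned it to -0.02.

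Pi16 (chr17:29317680-29330593, plus strand) had 8.55, 8.66, 5.45, 6.45 and 6.26 CPM in DMSO and 7.50, 8.97, 5.75, 7.39 and 6.42 CPM in FICZ. Its groups covered nearly the same range, and its log2 fold change was 0.03 (95% confidence interval -0.34 to 0.39). Cd55 (chr1:130439027-130462744, minus strand) had 20.2, 21.5, 16.2, 23.1 and 23.3 CPM in DMSO and 20.5, 18.9, 17.8, 18.2 and 21.1 CPM in FICZ. FICZ lay within the range of DMSO for Cd55, with a log2 fold change of -0.11 (95% confidence interval -0.35 to 0.12). Of the 50-base words in Cd55 transcripts, 9.12% also occur in other transcripts, chiefly those of its paralog Cd55b, which had at most 1 count in any library.

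Among the surface antigens, Cd34 (chr1:194938819-194961279, plus strand) had 180, 177, 164, 202 and 190 CPM in DMSO and 176, 161, 155, 172 and 143 CPM in FICZ. FICZ was the lower in 5 of 5 pairs, by 0.03 to 0.41 log2 units, although the groups overlapped. The log2 fold change was -0.18 (standard error 0.08, 95% confidence interval -0.36 to 0.0044), with adjusted p = 0.999 from edgeR and 0.929 with the block. The exact permutation test gave p = 0.0397 before any adjustment. The difference therefore did not pass the threshold over all genes.

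Thy1 (chr9:44043384-44048579, plus strand) had 118, 115, 127, 96.7 and 122 CPM in DMSO and 116, 105, 113, 101 and 103 CPM in FICZ. It was lower with FICZ in 4 of 5 pairs, with a log2 fold change of -0.11 (95% confidence interval -0.30 to 0.08). Cd24a (chr10:43578284-43584265, plus strand) had 0.367, 0.362, 0.412, 0.530 and 0.862 CPM in DMSO and 0.586, 0.488, 0.530, 0.461 and 0.809 CPM in FICZ. Number 5 was the highest in both groups, and the log2 fold change of 0.17 had a 95% confidence interval from -0.49 to 0.84, which also holds the value of Dpep1. Without FICZ replicate 5 it was 0.0069, and without DMSO replicate 5 it was 0.46.

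Ly6a (chr15:74994877-74998031, minus strand) was the least steady of the abundant markers. Its level was 125, 148, 91.9, 180 and 227 CPM in DMSO and 172, 137, 143, 160 and 136 CPM in FICZ. The SD in DMSO was 51.8 CPM against 15.7 in FICZ, and both the lowest and the highest library were DMSO. The pair differences ran from -0.74 log2 units in number 5 to 0.64 in number 3. The log2 fold change was -0.05 (95% confidence interval -0.48 to 0.39), but 0.02 with the block and 0.13 without DMSO replicate 5. That library, with the highest Ly6a, also had the highest sum of the 8 hepatocyte markers in the table (of 9 listed, none at 0), 7330 CPM against 1101 to 3009 in the other DMSO libraries and 1083 to 1636 in FICZ, and the highest Ly6e, at 427 CPM against 135 to 303 in the rest. In DMSO replicates 1 to 4 the hepatocyte sum was 3009, 1101, 1181 and 2723 CPM, beside Ly6a at 125, 148, 91.9 and 180 CPM. The part of hepatocyte transcripts in the Ly6a values was not tested. Ly6a also shares 19.0% of its 50-base words with other genes, among them Ly6c1, Ly6i and Ly6c2. Of these Ly6c1 had 7.07 ± 2.77 CPM in DMSO, Ly6i 0.268 ± 0.154 and Ly6c2 0.0262 ± 0.0586 (SD, n = 5).

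For most members the level varied more between replicate numbers than the FICZ-minus-DMSO difference varied between pairs. The SD of the 5 pair means, in log2 CPM, exceeded the SD of the 5 pair differences in 6 of 10 members, namely Dpep1, Dpp4, Pi16, Sema3c, Anxa3 and Cd24a, as it did in 27.1% of all genes tested. It was 0.49 against 0.18 for Sema3c, 0.43 against 0.22 for Dpp4 and 0.29 against 0.17 for Anxa3. The order was the opposite for Ly6a, at 0.24 against 0.55. Over all genes tested the medians were 0.17 for pair means and 0.24 for pair differences. The mean of unrelated libraries varies less than their difference, so these SDs are not on one scale. Equal SDs are thus not a neutral mark, and the share over all genes is the value to compare with.

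**Figure D4:**
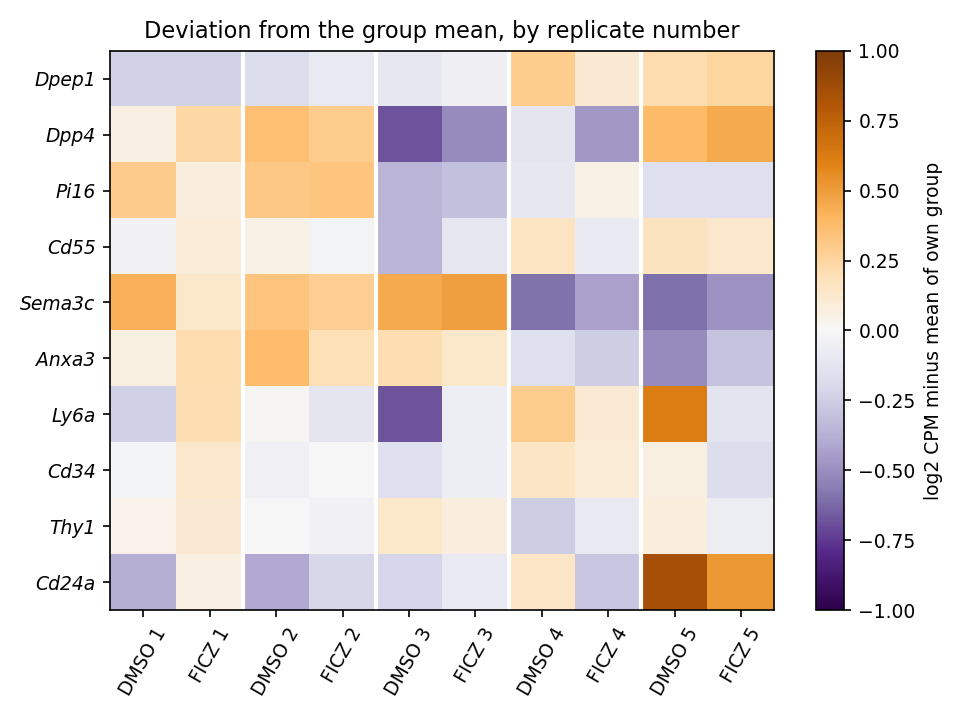
Deviation of each library's log2 CPM from the mean of its own group, for each marker (rows), with same-numbered DMSO and FICZ libraries side by side (columns) and colour from -1 (purple) to 1 (orange). Sema3c and Anxa3 are low in both libraries of numbers 4 and 5, Dpp4 is low in both libraries of number 3, and Ly6a is high in DMSO 5 without its FICZ counterpart.

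The wider programmes around these markers were examined with 19 further lists of 160 genes that are not members, 140 of them tested. In edgeR's test 0 of them passed the threshold in either direction, without or with the block. Without the block, 12 of the 140 had an unadjusted p at or under 0.05, beside 4.82% of all genes tested, and 8 of the 12 were hepatocyte genes. The median over the 140 log2 fold changes was -0.07. DESeq2 called 0 of these further genes, and DESeq2 with the block called 1, Smpd3, named here after its value was seen. Smpd3, a neutral sphingomyelinase and one of 16 further genes of the interstitial progenitors, had 7.79, 11.4, 11.8, 7.95 and 5.79 CPM in DMSO and 14.0, 20.7, 18.6, 11.1 and 10.7 CPM in FICZ. FICZ was the higher in 5 of 5 pairs although the groups overlapped, and with the block the log2 difference was 0.75 ± 0.09 (standard error) at adjusted p = 0.0757 from edgeR and 2.95e-06 from DESeq2.

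Without Smpd3 the interstitial list had a median log2 fold change of 0.02, with 8 of 15 positive. Its most abundant genes were the matrix genes Fbn1, at 2162 ± 346 CPM without and 2218 ± 403 with FICZ (SD, n = 5), Emilin2 and Mfap5, with log2 fold changes of 0.04, 0.03 and -0.08. The 16 genes of committed preadipocytes had a median of -0.06, with 6 positive. The collagen IV genes Col4a1 and Col4a2 had log2 fold changes of 0.01 and -0.02, and Lpl, the lipoprotein lipase, one of -0.06. The lowest value of that list, -0.92, was that of Apoe, which a hepatocyte also expresses and which reached 1863 CPM in DMSO replicate 5 against 419 to 923 in the other libraries. Apoe was named after its values were seen.

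The 8 genes of CD142+ stromal cells, a state described as holding back adipogenesis, had a median log2 fold change of -0.14 with 1 positive, and F3, which encodes CD142, stood at -0.17 (standard error 0.15). Mgp, a matrix inhibitor of calcification, was at -0.14 and Vit, a matrix protein, at 0.28. The 6 genes of fibro-inflammatory progenitors had a median of -0.05, with Fn1 at 0.05, Cd44 at 0.06 and Ccl2 at -0.01. Neither list had a gene past the threshold, and the medians are given without a test of the lists.

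None of the members' relatives passed the threshold in edgeR's test. In the Dpp4 family the median log2 fold change was -0.0041, with Dpp8 at 0.03, Dpp9 at -0.0041 and Dpp3 at 0.0090. Fap, the closest relative of Dpp4, averaged 24.8 ± 6.44 CPM without and 24.7 ± 5.63 with FICZ (SD, n = 5). Among the annexins the median was 0.0047, with Anxa1 at 0.03, Anxa2 at -0.0068 and Anxa5 at 0.0047. The 7 receptors that read class 3 semaphorins had a median of 0.02, with 4 positive. The most abundant, Plxna1, Nrp1 and Nrp2, were at 0.12, 0.11 and 0.12, while Plxna2 and Plxna3, named after their values were seen, were at -0.22 and -0.15 and lower with FICZ in 5 of 5 pairs. The 6 tested complement regulators, taken with Cd55, had a median of -0.28 with 1 positive, and of -0.05 without both libraries numbered 5. Of these Serping1 and Cr1l were at -0.17 and 0.02. Podxl and Podxl2, relatives of Cd34, were at -0.07 and -0.01. The relatives of Pi16 with most counts, Glipr2, Pi15 and Crispld2, had log2 fold changes of -0.10, 0.16 and -0.11.

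The 7 tested genes of the Ly6 family had a median of -0.33, which was -0.06 with the block and 0.02 without both libraries numbered 5. Ly6e was at -0.08 and Cd59a at -0.49, with a standard error of 0.27 each. The 8 hepatocyte genes had a median of -1.12, 8 with an unadjusted p at or under 0.05 and none past the threshold. With the block 0 of the 8 had such a p and the median was -0.77, and without both libraries numbered 5 it was -0.53. Alb was at -1.09, Apoa1 at -1.14 and Apoa2 at -1.09.

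No gene of the lists that check the sorted population passed the threshold either. The median log2 fold change was -0.41 for the 6 immune markers tested, -0.46 for 6 endothelial markers with 1 positive, -0.23 for 6 mural markers with 0 positive, -0.09 for 5 adipocyte markers and 0.02 for 7 mesothelial markers. At an unadjusted p of 0.05 in edgeR's block fit, 2 endothelial, 2 adipocyte and 1 mesothelial markers passed, beside 4.65% of all genes. For immune and mural markers the count was 0, and in the list of ASPC identity it was 1, the member Cd34. Among the adipocyte markers that passed was Cidec, a lipid-droplet protein, at -1.33 without the block (unadjusted p = 0.0149 from edgeR, adjusted p = 0.999). In the list of ASPC identity Col1a1, Pdgfra and Dcn had log2 fold changes of -0.07, 0.07 and -0.20. The most abundant immune markers, Csf1r, Cd68 and Lyz2, had 13.2 ± 1.56, 7.25 ± 1.63 and 5.46 ± 2.59 CPM in DMSO. Of 7 endothelial markers Tek had 64.5 ± 9.30 CPM in DMSO, while Kdr and Cdh5 had 6.65 ± 0.907 and 4.45 ± 1.44. The mural markers Cspg4, Notch3 and Myh11 had 8.57 ± 1.10, 5.36 ± 1.11 and 5.66 ± 3.61 CPM. Over all 10 libraries the adipocyte markers Plin1, Adipoq and Cidec lay between 2.40 and 13.0, between 0.870 and 7.05 and between 0.573 and 5.15 CPM. Among the mesothelial markers Wt1 had 68.1 ± 9.58 CPM, while Upk3b and Lrrn4 had 1.82 ± 0.445 and 1.17 ± 0.494 (SD, n = 5 for each value with an error).

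**Figure D5:**
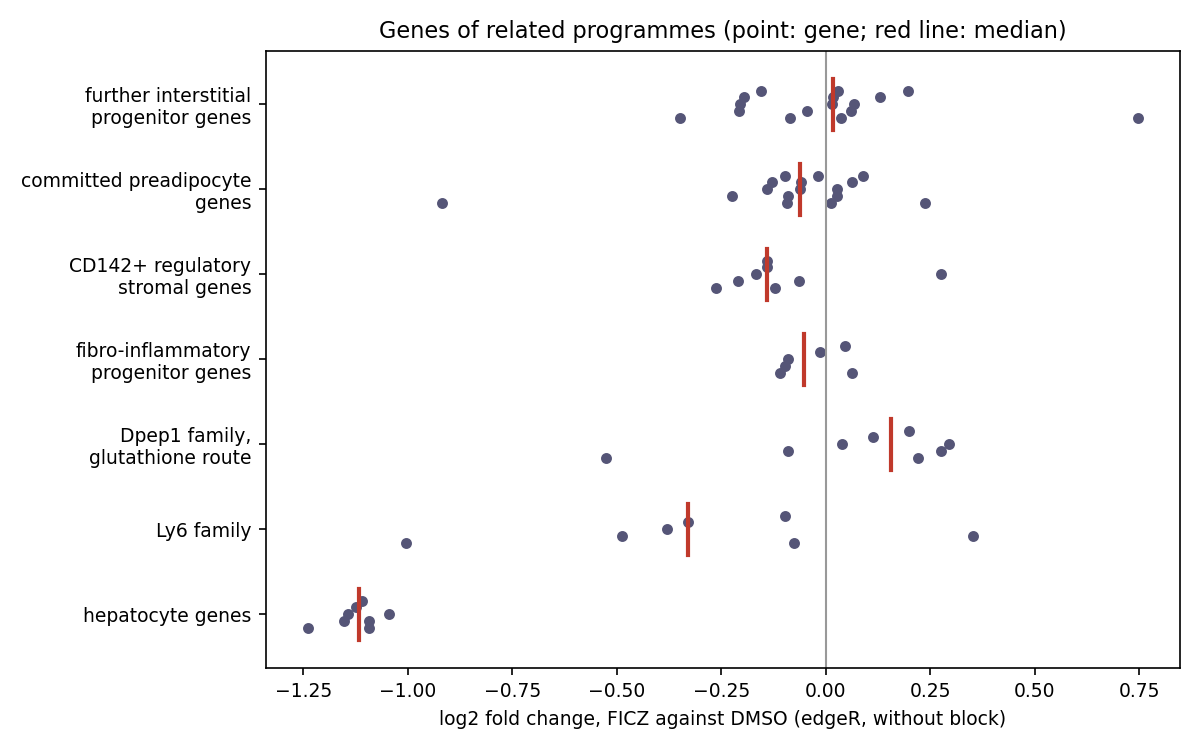
Log2 fold change of FICZ against DMSO (horizontal axis, edgeR without the block) for the tested genes of 7 related lists, with 1 point per gene and a red line at each list's median. The progenitor lists centre between -0.14 and 0.02 with Smpd3 at 0.75, the Dpep1 list at 0.16, the Ly6 family at -0.33 and the hepatocyte genes at -1.12.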

How the data were processed

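Bulk RNA sequencing of 10 libraries of cultured ASPCs was analysed, 5 treated with DMSO and 5 with FICZ, grouped by the labels. The authors aligned reads with STAR 2.7.7 to mm10 and deposited whole-number counts per gene symbol without normalization. The counting program, annotation, strand and treatment of reads with several alignments are not given in the sources used here, so overlapping antisense genes (at Dpp4, Pi16, Cd55 and Cd34) and shared sequence could add reads.

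Counts were tested with edgeR 4.0.16 in R 4.3.3 (TMM, filter by expression, robust quasi-likelihood test) and adjusted by Benjamini-Hochberg across every gene that entered the fit, calling those at or under 0.05. DESeq2 1.42.0, limma-voom (limma 3.58.1), other scalings and filters, and left-out libraries were alternatives. Standard errors for edgeR were derived from the log2 fold change and its test statistic, and the 95% confidence intervals were built from them. Log2 CPM used a prior count of 2. Counting error alone is covered by the floor of 3 counts. The tests were tried on simulated data. Within each group, libraries differed by more than sampling noise.

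The replicate number was the labels' own. Across genes, the deviations of same-numbered libraries from their group means correlated at 0.15 to 0.32 in the 5 pairs. The numbers were therefore taken to pair the libraries, although only 3 of the 5 DMSO libraries correlated best with the FICZ library of their own number. The mean for different numbers was -0.06. Deviations cancel within a group, so this mean turns negative when same numbers correlate positively and is no separate evidence.

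Coordinates and exon lengths came from a GENCODE annotation of GRCm38, the assembly of mm10. The genes named were all members, the 3 most abundant of each list, genes past the threshold, paralogs of members, Cyp1a1 and Alb. Ptprc, Pecam1 and Lep are given as defining markers, and Smpd3, Apoe, Plxna2 and Plxna3 were named after their values were seen. Members and lists were chosen with earlier results of these data known. The block fits without both libraries of 1 number, and limma-voom with the block, were added after the data were seen. The hepatocyte gene Tf was not analysed here. The promoter window of 1 member and 1 gene that the naming rule selects are not reported here.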

Additional observations from a re-analysis of the deposited data

How the results depend on the processing

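The count of members past the threshold was 0 in edgeR's test and 0 without each single library in turn. Without the block it was also 0 with limma-voom, with the other scalings and filters, and without both libraries numbered 5. It was 1 (Dpep1) with DESeq2, with the replicate block, with DESeq2 and the block, with limma-voom and the block, and with the block without both libraries numbered 5. Of 26 alternatives, 21 gave the same count as edgeR's test. The count in the other lists was 0, and 1 with DESeq2 and the block. The log2 fold change of Dpep1 passed at 0.65 with DESeq2, 0.66 with the replicate block, 0.66 with DESeq2 and the block, 0.66 with limma-voom and the block, and 0.64 with the block without both libraries numbered 5. It lay between 0.58 and 0.73 without each single library and passed in 0 of those 10 fits. With the block it did not pass without number 1, 2, 3 or 4. Each of these fits, like that without number 5, had fewer libraries, and the cause was not tested.

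The sign of Ly6a turned to 0.017 with limma-voom, 0.016 with the replicate block, 0.012 with DESeq2 and the block, 0.016 with limma-voom and the block, 0.16 without both libraries numbered 5, and with the block 0.20, 0.050 and 0.063 without numbers 5, 2 and 4. Pi16 turned to -0.0064 with the block without number 4. Without single libraries, Ly6a ranged from -0.18 to 0.13, Dpp4 from -0.020 to 0.23, Pi16 from -0.063 to 0.11, Sema3c from -0.085 to 0.16 and Anxa3 from -0.020 to 0.19. The adjusted p of these 5 members was above 0.05 in every fit run. Among the members, the block changed no call other than that of Dpep1. Cd34, Cd55, Thy1 and Cd24a kept their direction in every fit in which they were tested, but without single libraries Cd24a ranged from 0.0069 to 0.46, Cd55 from -0.19 to -0.069 (without DMSO replicates 3 and 5) and Thy1 from -0.17 to -0.074. Cd24a was not tested under the filter of 1 CPM in 5 libraries. Cd24a had the fewest counts, 14 to 42 per library.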
